A study of Mus musculus with 6 samples.

Results

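Glycolysis splits glucose into pyruvate in a chain of cytosolic enzymes, and cells that convert pyruvate to lactate must export it. When oxygen falls, the prolyl hydroxylases of the EGLN family stop marking the alpha subunits of hypoxia-inducible factor (HIF) for destruction, and HIF then raises transcription of glucose transporters, glycolytic enzymes and a wider set of hypoxia response genes. EGLN3 is itself a HIF target, so the pathway carries its own feedback.

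The expression of 39 genes of glycolysis and the hypoxia response, picked by name from the 58735 genes of the table, was compared between parental 22Rv1 cells and a subline resistant to BL-B01D1. The 22Rv1 line derives from human prostate carcinoma, and BL-B01D1 is an antibody-drug conjugate directed at EGFR and HER3. RNA-Seq covered 3 libraries of parental cells given vehicle and 3 libraries of the subline, named BL01D1_R in the labels, which had been grown in gradually rising concentrations of BL-B01D1. The subline came from 1 selection, nothing says that the libraries of a group came from separate cultures, and p-values therefore measure only the spread between these libraries. Culture density, medium age and whether drug was present at harvest were not given in the sources used here.

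Of the 39 genes, 37 had enough counts to be tested and SLC2A3 and CA9 did not. Of the 14 glycolytic enzyme genes, 1 (PFKP) had an absolute log2 fold change over 0.5, as had 2890 of all 17142 genes tested. EGLN3 mRNA fell 3.55-fold and CA12 mRNA 2.04-fold in the resistant subline. A gene passed the test at an FDR of less than 0.05 in edgeR's quasi-likelihood test and was called when its absolute log2 fold change was also greater than 1. At that FDR, 10 of the 37 genes were higher and 10 were lower in resistant cells, which is 54.1% of them. Over all 17142 genes tested, 17.1% were higher and 18.4% lower, or 35.5% in either direction. Abundant genes pass more easily, and among the 10416 tested genes with a mean of at least 10 CPM (counts per 1000000 of a TMM-scaled library) 43.6% passed, against 19 of the 32 listed genes at that level. An absolute log2 fold change over 0.5 was found for 708 of these 10416 genes and 2 of the 32, so the count for the enzymes is not read as particular to them. EGLN3 and CA12 were the 2 genes called, both lower. With limma on log2(FPKM + 1), a scale that understates changes of low genes, neither was called, at −0.69 for EGLN3 and −0.82 for CA12, although both passed the FDR. In edgeR's test 2.84% of all tested genes were called lower and 2.53% higher, or 5.37% in either direction. A count of 2 among the 37 genes is too small to be read as more than these shares. At a mean of at least 10 CPM, 1 of the 32 listed genes (CA12) and 0.816% of all genes were called lower. The median log2 fold change was 0.05 over the 37 genes and 0.0038 over all tested genes, and the median absolute log2 fold change was 0.14 against 0.17. The libraries of the groups did not overlap for 24 of the 37 genes, whereas 44.8% of all tested genes had no overlap. At a mean of at least 10 CPM, they did not overlap for 23 of the 32 listed genes and 5438 of the 10416 genes. Scaling by library size alone left 6 genes higher and 11 lower. Without parental library 3 the number higher was 5, and without resistant library 1 it was 6.

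**Figure D1:**
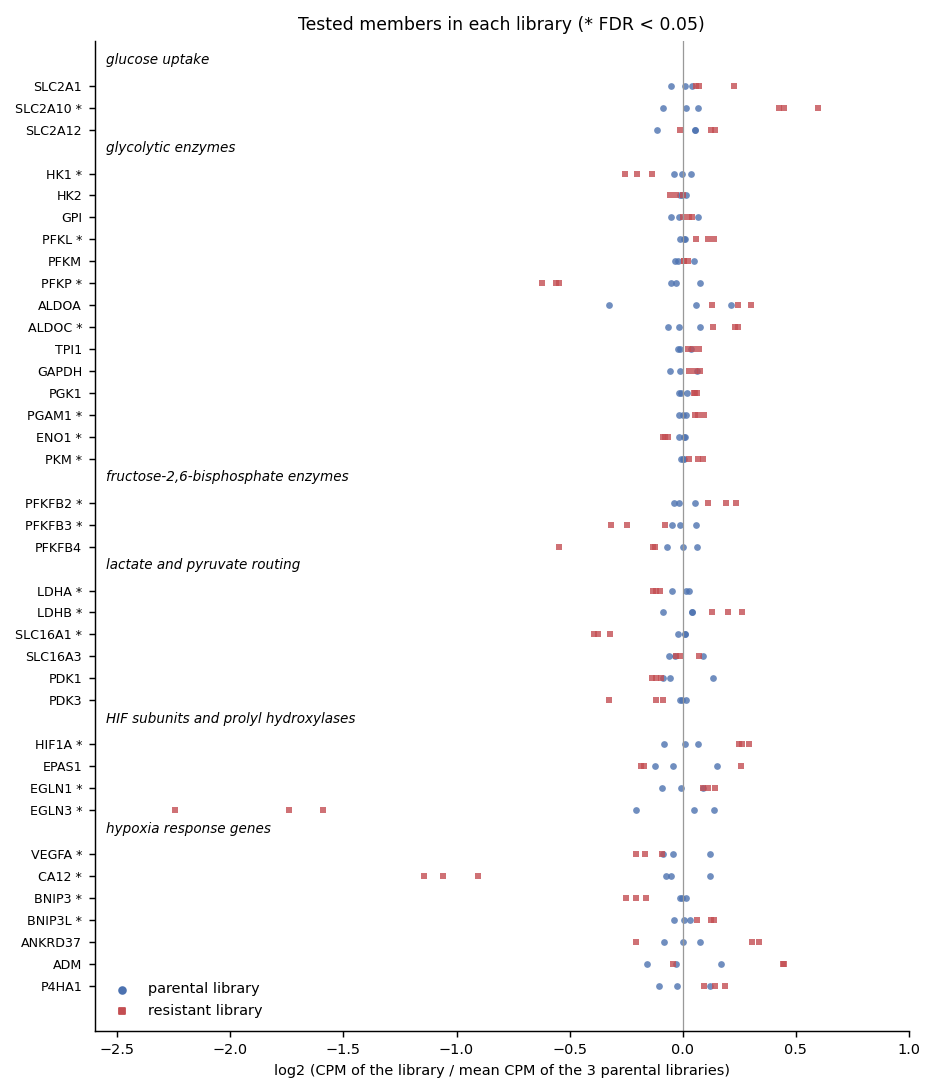
Each row is a tested gene and each point a library, plotted as log2 of its CPM over the mean CPM of the 3 parental libraries; asterisks mark an FDR of less than 0.05. Most rows stay close to 0 for both groups, and the resistant libraries (squares) leave the parental ones (circles) furthest in EGLN3, CA12 and PFKP.

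**Figure D2:**
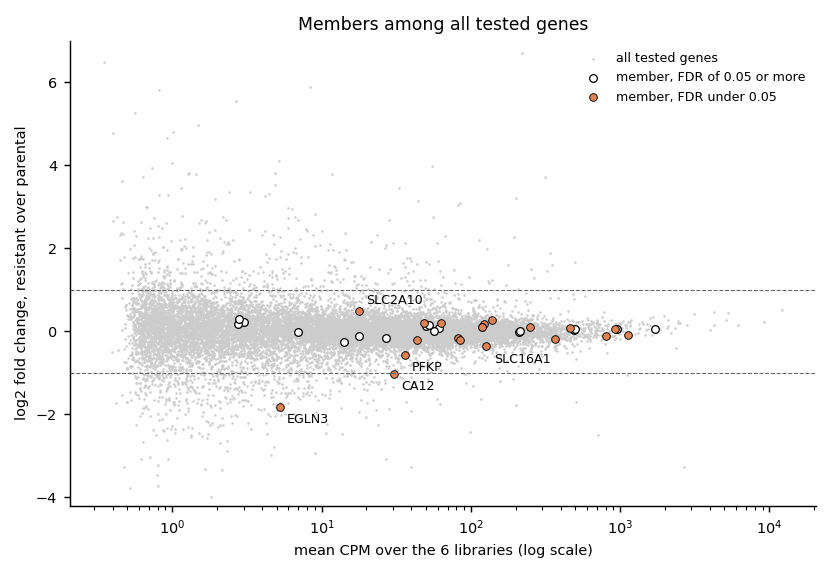
Log2 fold change of resistant over parental cells (vertical axis) against mean CPM on a log scale for all tested genes (grey) and the 37 tested members (circles, filled where the FDR was less than 0.05); dashed lines mark a log2 fold change of −1 and 1. EGLN3 at −1.83 and CA12 at −1.03 are the members below the lower line, and the most abundant glycolytic enzymes lie near 0.

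Total counts per library ranged from 13821639 to 17251491, and 3 counts corresponded to between 0.174 and 0.216 CPM. The first principal component carried 61.6% of the variance and parted the groups, while on the second, with 10.3%, parental library 1 scored 24.3 and the other parental libraries −5.08 and −19.5. All 10 prostate luminal markers were expressed, with a summed level of 3448 to 3550 CPM in parental and 3640 to 3728 CPM in resistant libraries. Markers of basal, endothelial and leukocyte cells summed to at most 0.308 CPM in any library, with KRT5, CDH5 and CD3E at 0. All 5 neuroendocrine markers had a count, with a summed level of 135 to 150 CPM in parental and 110 to 118 CPM in resistant libraries. The 4 fibroblast markers, carried mostly by LUM, summed to 111 to 114 CPM in parental and 39.03 to 43.38 CPM in resistant libraries. Mean levels in parental and resistant libraries were 96.0 and 28.8 CPM for LUM and 14.2 and 11.7 CPM for COL1A1. For DCN they were 1.79 and 1.30 CPM, and for COL1A2 0.024 and 0.041 CPM. The part of these markers in the results below was not tested, and in bulk RNA fewer cells of a type and less RNA per cell cannot be told apart.

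Among the HIF subunits and hydroxylases, the largest change was that of EGLN3, a prolyl hydroxylase that acts on HIF alpha. EGLN3 (ENSG00000129521) maps to chromosome 14 (hg38, minus strand, 33924231 to 34462774). It had 146, 119 and 125 counts in parental libraries 1, 2 and 3 and 45, 36 and 28 counts in resistant libraries 1, 2 and 3. These correspond to 8.470, 7.086 and 9.005 CPM in parental cells and 2.71, 2.45 and 1.73 CPM in resistant cells. Every resistant library was well below every parental library. The log2 fold change was −1.83 (SE 0.18, FDR 6.89e-11), and it stayed between −1.97 and −1.65 when each library was left out in turn, against −0.69 with limma on log2(FPKM + 1). SPTSSA lies entirely within the span of the EGLN3 model on the same strand, and its log2 fold change was −0.13. The counts of EGLN3 and SPTSSA are uncertain to the extent that reads in the shared stretch were left out or split.

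HIF1A, the broadly expressed alpha subunit of HIF, moved the other way by a smaller amount. It had 127, 132 and 119 CPM in parental libraries and 151, 149 and 154 CPM in resistant libraries, without overlap. HIF1A thus rose 1.20-fold, with a log2 fold change of 0.27 (SE 0.04, FDR 3.46e-07). EGLN1, the main oxygen-sensing hydroxylase, rose by a log2 value of 0.11 (FDR 0.0290), but its libraries overlapped and it no longer passed with DESeq2, library size alone or limma on log2(FPKM + 1), nor without parental library 2 (0.07) or 3 (0.11) or resistant library 1 (0.12) or 2 (0.10). EPAS1, which encodes the HIF-2 alpha subunit, did not pass (log2 fold change −0.02, 95% interval −0.32 to 0.28). Per length, HIF1A stood at 24.5 FPKM (fragments per kilobase of gene length, scaled to library size as CPM) in parental cells and EPAS1 at 0.959 FPKM.

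The hypoxia response genes changed in both directions. Of the 7 tested, 3 fell, 1 rose and 3 did not pass. Since 17.1% of all tested genes were higher and 18.4% lower, nothing particular to these 7 is read from the counts. CA12 (ENSG00000074410; chromosome 15, hg38, minus strand, 63321378 to 63382161) encodes a membrane carbonic anhydrase that helps to control pH outside the cell. It had 684, 656 and 621 counts in parental libraries and 364, 274 and 320 counts in resistant libraries. In CPM these were 39.7, 39.1 and 44.7 in parental cells against 22.0, 18.6 and 19.7 in resistant cells, so the groups lay far apart. Its log2 fold change was −1.03 (SE 0.08, FDR 1.01e-14). Because this lies just past the threshold, the call was lost without parental library 3 (−0.97) and without resistant library 2 (−0.98), while the FDR stayed below 0.05 in both.

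BNIP3, a mitochondrial protein of mitophagy, fell by a log2 value of 0.21 (FDR 2.08e-04). VEGFA, the angiogenic growth factor, fell by 0.15 on the log2 scale (FDR 0.0143) and no longer passed with limma on log2(FPKM + 1) (−0.13) or without parental library 3 (−0.09) or resistant library 2 (−0.14) or 3 (−0.12). BNIP3L, the paralog of BNIP3, rose by 0.11 (FDR 0.0249), which was lost with DESeq2 or library size alone and without parental library 3 (0.09) or resistant library 1 (0.10) or 2 (0.10). The genes for the vasodilator peptide adrenomedullin (ADM), the ankyrin repeat protein ANKRD37 and the collagen prolyl hydroxylase subunit P4HA1 had log2 fold changes of 0.29, 0.17 and 0.14 and did not pass. P4HA1 did pass with at least 10 counts in every library (0.14) and without parental library 1 (0.21) or resistant library 3 (0.17). ADM and ANKRD37 rested on 263 to 265 counts over all libraries, and their 95% intervals of −0.17 to 0.75 and −0.29 to 0.63 leave room for a change in either direction. CA9, the carbonic anhydrase best known as a hypoxia marker, had 7, 0 and 1 counts in parental and 6, 0 and 7 counts in resistant libraries, and no difference was detectable at this depth.

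**Figure D3:**
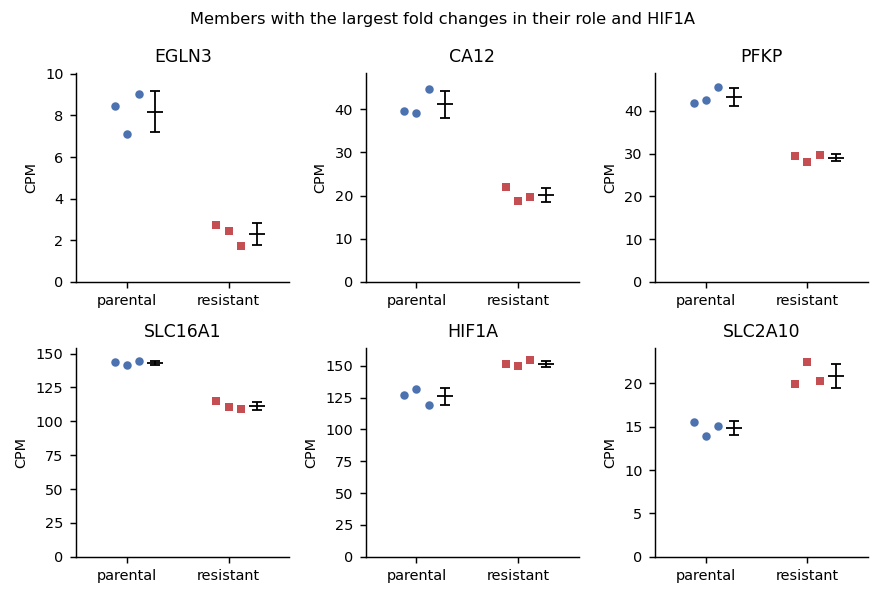
CPM of 6 members in each library, with parental libraries as circles, resistant libraries as squares and bars for mean ± SD (n = 3), on axes that start at 0. The groups do not overlap in any panel, with EGLN3, CA12, PFKP and SLC16A1 lower and HIF1A and SLC2A10 higher in resistant cells. The genes were picked for the largest fold change in their role, and HIF1A after its values were seen. The lack of overlap therefore follows from the choice, and 44.8% of all tested genes had no overlap either.

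Glucose uptake genes were led by SLC2A12 and SLC2A1 per length, at 13.3 and 10.1 FPKM in parental cells. SLC2A1 encodes GLUT1, the widespread basal glucose transporter and a classical HIF target. SLC2A1 had 48.1, 46.1 and 49.2 CPM in parental and 49.8, 50.2 and 56.0 CPM in resistant libraries, which came close to each other without overlapping. Its log2 fold change of 0.12 (95% interval 0.0046 to 0.24) did not pass after adjustment (FDR 0.101). SLC2A10, which encodes GLUT10, had 15.60, 13.99 and 15.06 CPM in parental and 19.97, 22.50 and 20.27 CPM in resistant libraries. It was the only glucose transporter of the 3 tested to pass, with a rise of 0.49 on the log2 scale (SE 0.09, FDR 2.56e-05). SLC2A12 did not pass (0.08, 95% interval −0.03 to 0.19). SLC2A3, the high-affinity transporter GLUT3, had 1, 0 and 0 counts in parental and 3, 0 and 0 counts in resistant libraries and was in effect undetected.

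Of the 14 glycolytic enzyme genes, 4 rose, 3 fell and 7 did not pass. Among all tested genes 17.1% were higher and 18.4% lower, and 43.6% of those at 10 CPM or more passed. Nothing particular to the enzymes is read from these counts. The 95% interval of the log2 fold change lay within −0.5 to 0.5 for 12 of the 14 (85.7%), against 87.5% of all tested genes at 10 CPM or more. The exceptions were PFKP and ALDOA. Summed over the 14 genes, the level was 1730 ± 26.3 FPKM (SD, n = 3) in parental cells and 1764 ± 4.29 FPKM (SD, n = 3) in resistant cells, a difference of 1.92%. ALDOA (0.715 FPKM in parental cells) and ALDOC (20.1 FPKM) entered the counts and the sum, although aldolase could not be read, as given below. The sum and the ranking that follows therefore leave the level of aldolase open. GAPDH was the most abundant member per length (566 FPKM in parental cells), followed by TPI1 (348 FPKM), ENO1 (219 FPKM), PGAM1 (176 FPKM) and, among the enzymes, PKM (106 FPKM). Their log2 fold changes were 0.05 for GAPDH, 0.05 for TPI1, −0.08 for ENO1, 0.07 for PGAM1 and 0.06 for PKM. The fall of ENO1 passed (FDR 0.00592), as did the rises of PGAM1 (FDR 0.0314) and PKM (FDR 0.0403), but PGAM1 did not pass with library size alone (0.06), with no filter (0.07) or without parental library 1 or 3 or resistant library 2 or 3 (0.06 to 0.08). PKM did not pass with library size alone (0.05), with no filter (0.06), with limma on log2(FPKM + 1) (0.06) or without parental library 2 or 3 or resistant library 1 or 3 (0.05 to 0.06). GPI, PGK1 and TPI1, which encode the isomerases and a kinase of the chain, had log2 fold changes between 0.02 and 0.06 and, like GAPDH, did not pass. GAPDH did pass with limma-voom (0.05) and without parental library 1 (0.09), as did TPI1 without that library (0.06).

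The largest log2 fold change among the 14 enzyme genes was that of PFKP. PFKP, the platelet-type phosphofructokinase subunit, had 41.8, 42.5 and 45.6 CPM in parental and 29.4, 28.1 and 29.6 CPM in resistant libraries. It fell by 0.57 on the log2 scale (SE 0.07, FDR 2.07e-09). The liver-type subunit PFKL rose by 0.10 (FDR 0.00788, or 0.09 and not passing without resistant library 1) and the muscle-type subunit PFKM did not pass (0.01, 95% interval −0.05 to 0.08). As a share of the summed FPKM of the 3 subunits, PFKP went from 13.8% ± 0.41 (SD, n = 3) to 9.37% ± 0.15 (SD, n = 3) and PFKL from 41.4% ± 1.048 to 44.9% ± 0.517. HK1, the constitutive hexokinase, fell by 0.20 (FDR 1.34e-06), while HK2, the inducible form, did not pass (−0.03, 95% interval −0.09 to 0.04). The HK2 share of the hexokinase pair went from 36.1% ± 0.49 (SD, n = 3) to 38.9% ± 1.45 (SD, n = 3).

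Aldolase could not be read from these counts. ALDOA had 292 counts over all libraries, whereas AC093512.2, a protein-coding model on the same strand that covers 99.4% of the ALDOA span, had 563. ALDOC, the brain-type aldolase, lies wholly within another same-strand model, AC005726.1. It rose by 0.20 (FDR 0.00183), and its share of aldolase FPKM is not interpreted.

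The PFKFB genes encode the enzymes that make and break fructose 2,6-bisphosphate, the activator of phosphofructokinase. PFKFB2 rose by 0.18 on the log2 scale (FDR 4.15e-04) and PFKFB3 fell by 0.21 (FDR 0.00781), which did not pass with limma on log2(FPKM + 1) (−0.19) or without resistant library 3 (−0.16). PFKFB4 had 16.1, 14.7 and 15.4 CPM in parental and 14.1, 14.1 and 10.5 CPM in resistant libraries. Its log2 fold change of −0.26 did not pass (FDR 0.0563), and resistant library 3 stood below the others. Without that library it was −0.13, whereas PFKFB4 did pass with library size alone (−0.27) and without resistant library 1 (−0.33) or 2 (−0.32). PFKFB2 shares 19.6% of its span with YOD1 on the opposite strand, and the strand setting of the counting is not given, so its value is uncertain.

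Of the 6 listed genes that route pyruvate and lactate, the monocarboxylate transporter SLC16A1 (MCT1) had the largest log2 fold change. It had 144, 141 and 144 CPM in parental and 115, 110 and 109 CPM in resistant libraries. The groups were separated by far more than their spread, and the gene fell by 0.36 on the log2 scale (SE 0.04, FDR 1.70e-10). SLC16A3 (MCT4), the lactate exporter of glycolytic cells, did not pass (0.01, 95% interval −0.10 to 0.13), and 67.5% of its span lies opposite CSNK1D. The SLC16A3 share of this transporter pair went from 18.9% ± 0.81 (SD, n = 3) to 23.2% ± 1.00 (SD, n = 3) of summed FPKM.

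LDHA, which reduces pyruvate to lactate, fell by 0.12 (FDR 2.60e-04), whereas LDHB, the heart-type subunit, rose by 0.20 (FDR 0.00755, or 0.16 and not passing without parental library 3 or resistant library 3). LDHA stood at 134 FPKM and LDHB at 15.2 FPKM in parental cells, and the LDHB share went from 10.2% ± 0.67 (SD, n = 3) to 12.4% ± 0.62 (SD, n = 3). PDK1 and PDK3, kinases that switch off pyruvate dehydrogenase, had log2 fold changes of −0.12 and −0.17 and did not pass.

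Of the 11 paralog shares compared, 7 had groups that did not overlap. Such shares were not computed over other genes, but 44.8% of all tested genes, taken singly, had no overlap. The 7 are not separate results, since PFKP and PFKL are parts of the same total. The shares of HK2 and SLC16A3 rose although neither gene passed, while HK1 and SLC16A1 fell. BNIP3 went from 38.8% ± 0.65 (SD, n = 3) of BNIP3 plus BNIP3L to 33.7% ± 0.25 (SD, n = 3), and PFKFB4 from 11.8% ± 0.64 to 9.85% ± 1.36 of the 3 PFKFB genes. For each of the 7, the exact two-sided permutation test gave p = 0.1, the smallest that 3 libraries against 3 allow, or 0.157 adjusted over the 11 shares. The shares of EPAS1, PFKM, ALDOC and SLC2A1 overlapped between the groups.

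**Figure D4:**
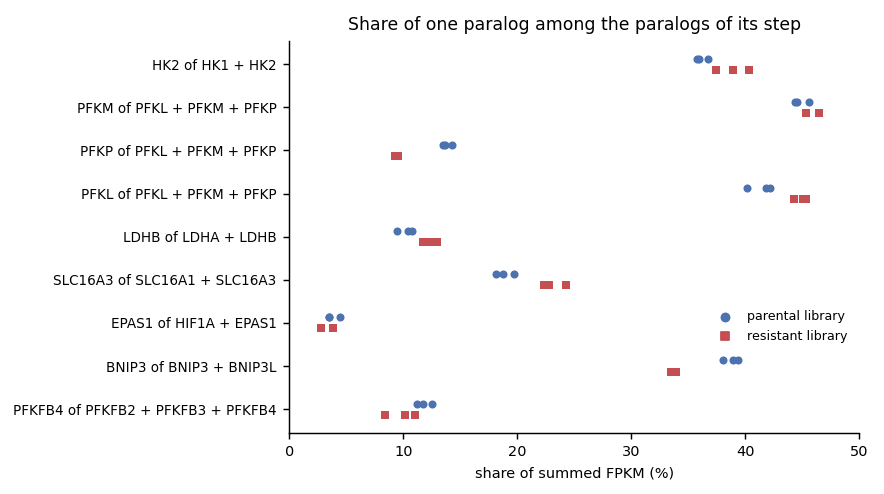
Share of summed FPKM, in percent, that a paralog takes among the paralogs of its step, with parental libraries as circles and resistant libraries as squares. PFKP and BNIP3 sit lower, and HK2, PFKL, LDHB and SLC16A3 higher, in all resistant libraries.

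A further 136 genes of the same pathways were examined, of which 107 were tested. At an FDR of less than 0.05, 21 were higher and 28 lower, or 45.8%, against 35.5% of all tested genes and 43.6% of those at 10 CPM or more. The 3 genes called, all lower, were PDK4, STC2 and BHLHE40, a count at the background of 2.84% of all tested genes. PDK4, the pyruvate dehydrogenase kinase induced by fasting, had 57.6, 60.6 and 59.7 CPM in parental and 28.1, 24.3 and 24.3 CPM in resistant libraries. Its log2 fold change was −1.21 (SE 0.07, FDR 3.62e-19). STC2, a secreted glycoprotein of stress responses, had 32.8, 34.0 and 34.3 CPM in parental and 12.8, 15.0 and 14.4 CPM in resistant libraries, with a log2 fold change of −1.26 (FDR 1.11e-16). BHLHE40, a HIF-induced repressor, was weakly expressed, with 29, 20 and 32 counts in parental and 14, 0 and 11 counts in resistant libraries (log2 fold change −1.69, FDR 0.00245). BHLHE40 was not called with DESeq2 (FDR 0.236) or with limma on log2(FPKM + 1) (−0.36), and it was not tested with at least 10 counts in every library. STC2 was not called with limma on log2(FPKM + 1) either (−0.98).

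The counts of each wider list stand against 17.1% higher and 18.4% lower over all tested genes, and nothing particular to a list is read from them. The wider hypoxia list had 12 genes lower and 6 higher of 38 tested and a median log2 fold change of −0.05. The list for lactate and pyruvate routing had 7 lower and 5 higher of 19, with SLC16A7 (MCT2), another monocarboxylate transporter, at −0.89 (FDR 7.42e-13), and gluconeogenesis and glycogen had 1 lower and 4 higher of 10. In the latter, PCK2, the mitochondrial phosphoenolpyruvate carboxykinase, fell by 0.53 (FDR 1.37e-15) and GYS1, muscle-type glycogen synthase, rose by 0.33 (FDR 1.10e-08).

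Among HIF pathway regulators, 3 were higher and 3 lower of 17, or 35.3%. CITED2, which competes with HIF for its coactivator, rose by 0.40 (FDR 2.96e-14), and TXNIP, a glucose-induced inhibitor of glucose uptake, rose by 0.40 (FDR 1.29e-11). Of the 9 other glycolysis enzymes tested, 2 were higher and 2 lower, among them the D-lactate dehydrogenase LDHD (log2 fold change 0.52, FDR 2.90e-05). In the pentose phosphate pathway, transketolase (TKT) fell by 0.17 (FDR 6.10e-06) and transaldolase (TALDO1) rose by 0.12 (FDR 0.00636), with 1 higher and 2 lower of 8. Of the other glucose transporters, 1 of 6 passed, SLC2A4 (GLUT4), which fell by 0.87 (FDR 1.55e-06), and SLC2A11 came next without passing (0.24, FDR 0.0555).

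**Figure D5:**
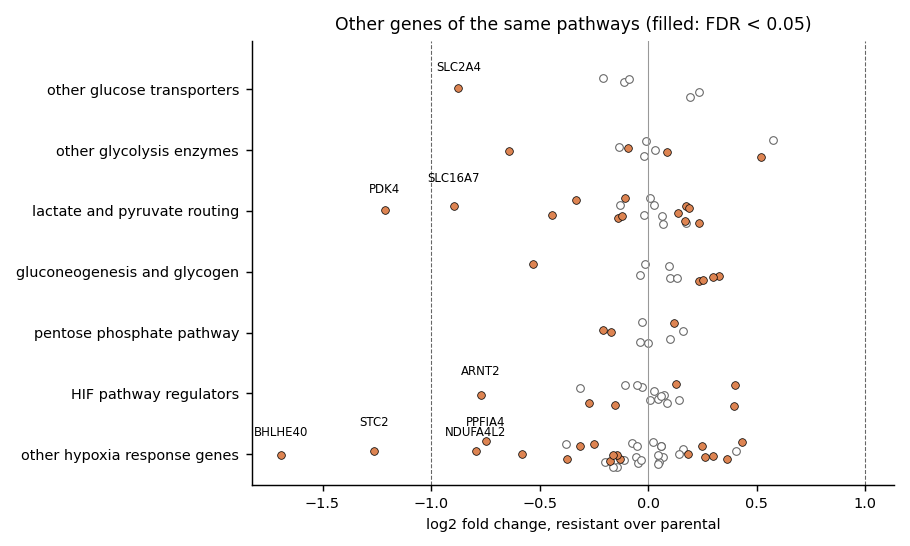
Log2 fold change of resistant over parental cells for the other tested genes of each pathway list, 1 point a gene, filled where the FDR was less than 0.05 and scattered vertically only for legibility; dashed lines mark −1 and 1. PDK4, STC2 and BHLHE40 lie beyond −1, and no gene lies beyond 1.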

How the data were processed

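RNA-Seq libraries of parental and resistant 22Rv1 cells (n = 3 each) were compared. The authors purified mRNA with oligo-dT, mapped reads to hg38 with HISAT2 2.0.5 and counted them per gene with featureCounts 1.5.0-p3, and fastp is also named in the submitters' processing notes. They deposited raw counts per gene, with gene lengths in bases as another listed quantity, which were used here for FPKM. The annotation release and strand setting were not given in the sources used here. Although the labels name mouse, the table holds human gene identifiers and was treated accordingly. No human sequence was used here, so promoter motifs were not analysed. No column of per-sample values was left unused.

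Genes were filtered with filterByExpr, scaled with TMM and tested with edgeR 4.0.16 (R 4.3.3), with Benjamini-Hochberg adjustment over 17142 genes. The standard error was the log2 fold change divided by the square root of F, and 95% intervals are unadjusted and used the test's degrees of freedom. On simulated counts for 17142 genes with 200 changed by a log2 value of 2, this fit recovered 195 with 2 false calls. The simulation gave all genes the same dispersion and scored calls only. It therefore cannot tell how well smaller changes are found by the FDR alone. Alternatives were limma-voom and limma on log2(FPKM + 1) (limma 3.58.1, the package the study names), DESeq2 1.42.0, scaling by library size alone, a prior count of 5, omitting the filter, a stricter filter (10 or more counts in all libraries), the replicate block and each library left out.

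The genes and lists were chosen with earlier results of these data known. Values per library are given for genes called and for the gene with the largest absolute log2 fold change in each role. SLC16A7 and per-library values of HIF1A, SLC2A1 and the untested genes were added after their values were seen. From the wider lists, called genes are named, and otherwise the 2 genes with the lowest FDR. A result that this rule would name is not reported here. Of those 136 genes, 1 (G6PC1) is not listed under that symbol.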

Additional observations from a re-analysis of the deposited data

How the results depend on the processing

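Single genes gave 518 log2 fold changes over the alternatives. The outcome compared was the call for EGLN3 and CA12 and passing the FDR for every other gene. Of the 518, 461 had the sign and the outcome of the reported fit and 10 changed sign. A further 38 lost the call or the pass and 9 passed only in the alternative. The cause of each change was not tested. With library size alone the number of genes higher went from 10 to 6, and PFKM and SLC16A3, which did not pass in any fit, turned to −0.0027 and −0.0020. With limma on log2(FPKM + 1) the number called lower went from 2 to 0 (EGLN3 at −0.69, CA12 at −0.82), and that of the other pathway genes from 3 to 1, PDK4. Counting only genes at 10 CPM or more, a limit chosen after seeing the data, left 1 called lower, CA12. By share of raw counts, the difference between resistant and parental cells in percentage points was −2.93 for PFKP, 1.18 for LDHB, 5.53 for SLC16A3 and −0.081 for PFKM, against −4.43, 2.17, 4.28 and 0.894 by FPKM. With each library left out in turn, 5 to 12 genes were higher, 8 to 11 lower and 1 to 2 called lower. Fold changes that crossed 0 in those fits, all without passing, ranged from −0.0019 to 0.059 for GPI, −0.0025 to 0.039 for PFKM, −0.017 to 0.060 for SLC16A3 and −0.17 to 0.061 for EPAS1. Same-numbered libraries of the groups showed no shared deviation (correlations of −0.0081, −0.020 and −0.016). Such correlations cannot tell whether these libraries were handled together, which is not given in the sources used here. Blocking on that number, 10 genes were higher, 10 lower and 2 called lower. Depth limited CA9, SLC2A3, ADM and ANKRD37.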

Other observations

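The genes near EGLN3 and CA12 on their chromosomes had smaller log2 fold changes than these genes. EGLN3 and CA12 were taken because they were called, so this difference tells nothing about their regions. For comparison, 5.37% of all tested genes were called and 35.5% passed, in either direction. Of the 10 tested genes next to EGLN3 in order of start position, of which SPTSSA lies within its span, 0 were called, and their log2 fold changes ranged from −0.17 (CFL2) to 0.09 (ARHGAP5-AS1) with a median of 0.03. CFL2 and SPTSSA (−0.13) fell at an FDR of less than 0.05 in edgeR's test. Of the 10 nearest to CA12, 0 were called, 3 rose and 1 fell at an FDR of less than 0.05 in edgeR's test. LACTB, which encodes a mitochondrial serine beta-lactamase-like protein, rose by 0.44 on the log2 scale, RPS27L by 0.34 and TPM1 by 0.21, whereas the deubiquitinase gene USP3 fell by 0.33. DAPK2 had the lowest value (−0.62) and did not pass (FDR 0.0797). Genes named here were chosen after their values were seen.

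Chromosome 10 carries 6 of the tested genes, more than any other chromosome. HK1, PFKP, PFKFB3 and BNIP3 fell, PGAM1 rose and P4HA1 did not pass, and their median log2 fold change was −0.20, against −0.00075 over the 650 genes tested on that chromosome. Over all tested genes 17.1% were higher and 18.4% lower, and the shares on chromosome 10 alone were not computed. The 6 genes are spread from position 3066333 to 131982013. This comparison was not planned, and nothing about the chromosome is read from it.

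Transcripts overlapping the listed genes held a few changes of their own. SLC2A1-AS1, which overlaps the start of SLC2A1 on the opposite strand by 128 bases, had 11, 12 and 10 counts in parental and 24, 25 and 26 counts in resistant libraries, with a log2 fold change of 1.19 (FDR 0.00678 in edgeR's test). SPSB2, a ubiquitin ligase adaptor that overlaps TPI1 by 14 bases, rose by 0.68 (FDR 1.15e-06). BNIP3 has 39 pseudogenes by name in the table, which together held 462 counts or 5.76% of the counts of BNIP3. How reads shared by such copies were counted is not given in the sources used here, so the level of BNIP3 is uncertain. For GAPDH, with 62 such pseudogenes, the share was 0.280%.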
